A study of Mus musculus with 2 samples.

Results

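The measurements concern 10 mouse genes that encode regulators of smooth muscle gene expression: the coactivators Myocd, Mkl1 and Mkl2, the DNA-binding factors Srf, Mef2a, Mef2c and Mef2d, and the LIM proteins Fhl1, Fhl2 and Csrp1. Members were chosen by name, as genes whose symbol stood on a probe in both scanner files. Mkl1 and Mkl2 are the older array names of Mrtfa and Mrtfb. The array held 18 probes for these 10 genes, of 39429 probes for 29875 genes in all, and all 18 had enough signal to be tested.

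RNA came from dissected ureters of NMRI mouse embryos at E14.5, when the mesenchyme around the ureteric epithelium is forming smooth muscle. Gata6cKO embryos had the genotype Tbx18(cre/+);Gata6(fl/fl), in which cre is made from the Tbx18 locus of the ureteric mesenchyme and can remove the floxed Gata6 sequence there. Control embryos had the genotype Gata6(fl/?), that is, at least 1 floxed Gata6 copy with the other not given, and no cre in their labels. Each of 2 two-colour arrays held 1 Gata6cKO and 1 control RNA. The male pair had the Gata6cKO RNA in Cy5 and the female pair had it in Cy3. Between the arrays sex, dye and replicate therefore cannot be told apart. Nor can loss of Gata6 be told apart from the presence of cre or from the Tbx18 copy that carries it. How many embryos went into each RNA is not given in the labels. The p-values rest mostly on a spread between arrays that limma pools over all genes (prior df 11.9 against residual df 1). That spread covers these samples only and may be technical.

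SRF is a DNA-binding factor of the MADS family that recognises the CArG box, a short A- and T-rich element found before many contractile genes. On its own SRF is a modest activator, and its output depends on partners: myocardin (Myocd) and the myocardin-related factors MRTF-A (Mkl1) and MRTF-B (Mkl2) direct it to contractile genes, while ternary complex factors such as ELK4 direct it to genes that answer growth factors. The MRTFs are held in the cytoplasm by unpolymerised actin, whereas myocardin is nuclear and is made mainly in heart and smooth muscle. MEF2 factors are related MADS proteins that act in all muscle types, and FHL and CSRP proteins are LIM-domain proteins that bind actin structures, transcription factors or both. In the ureter, smooth muscle arises from mesenchyme with a history of Tbx18 expression, and Myocd is the regulator whose appearance marks the start of that programme.

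Median spot signals were 224 and 232.2 in Cy3 and 425.3 and 442.1 in Cy5, over median local backgrounds of 23 to 85, and 67.2% to 68.5% of spots were well above background. No spot was saturated. With 2 arrays, their number limits the precision. The Gata6 probe itself read higher in the RNA labelled Gata6cKO, at 22510 (male) and 22460 (female) normalised intensity units against 12510 and 16360 in control. Its log2 ratio was 0.65 ± 0.12 (moderated SE, n = 2 arrays, limma adjusted p = 0.00612), a call that was lost in 3 of 10 alternative settings. Where the probe lies relative to the floxed part was not analysed here, so it does not check the labels. Of the 5 genes fixed as markers of the ureteric mesenchyme (Tbx18, Sox9, Tshz3, Foxf1, Acta2), all were measured in every RNA.

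Myocd was the member with a large change, and it fell. Fhl1 fell by a smaller amount, and the other 8 members did not pass the test in either direction. Calls were made with limma at a Benjamini-Hochberg adjusted p under 0.05 over 19801 genes: 2 of 10 members were lower and 0 were higher in Gata6cKO, and the same counts were found at an unadjusted p under 0.05, where 1208 of the 19801 genes were lower and 1042 higher. Across all genes tested, 2.35% were called lower, 2.20% higher and 4.55% in either direction. Fitted over all 26200 probes, 2 of the members' 18 probes were called lower (Myocd and Fhl1) and 0 higher, against 2.43% of all probes lower and 4.66% in either direction. The members' median log2 ratio was -0.02, against -0.00 over all genes. A 2-fold fall on both arrays was seen in 1 member, Myocd, and a 2-fold rise on both arrays in 0 members, while 0.212% of all genes fell and 0.187% rose by that rule. The RNA was from whole ureters, in which fewer cells of a type and less RNA per cell cannot be told apart.

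**Figure D1:**
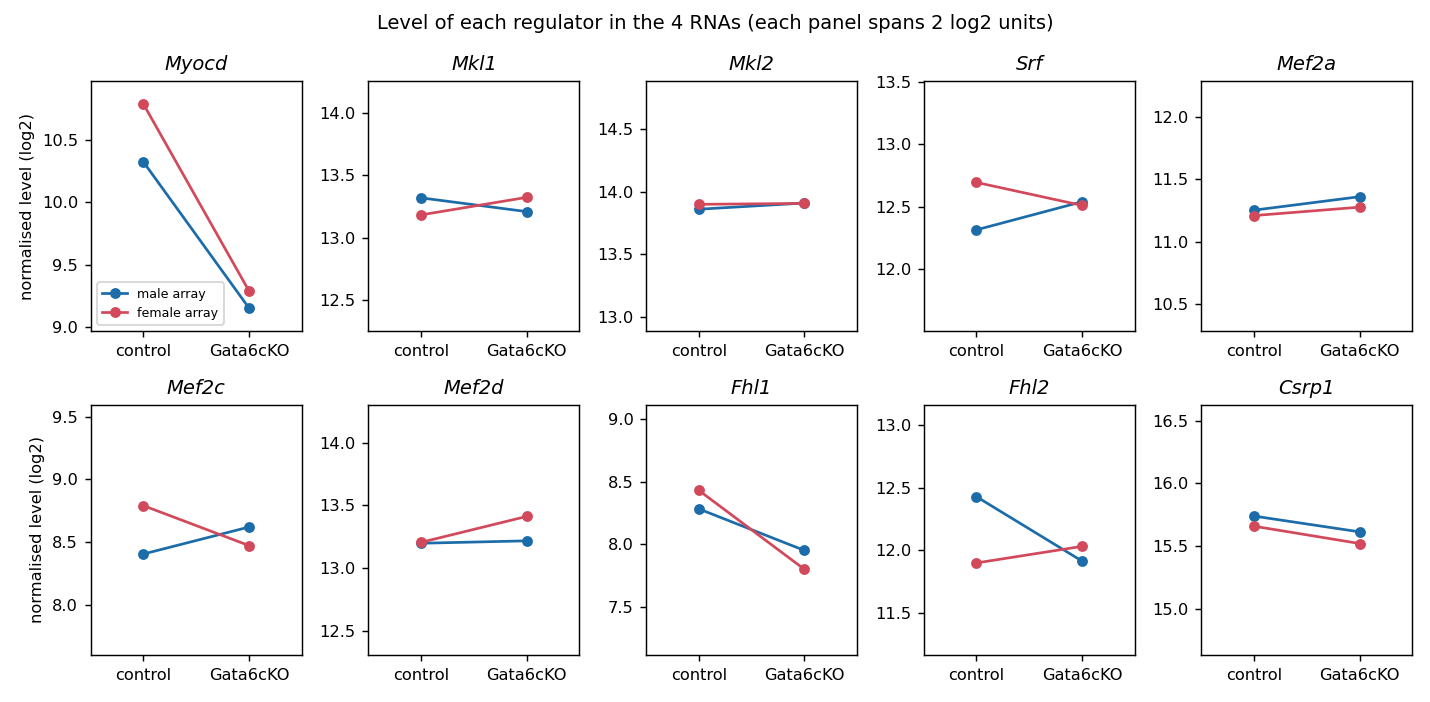
Normalised log2 intensity of each member's brightest probe in the control and Gata6cKO RNA of the male (blue) and female (red) array, with a line joining the RNAs of 1 array and 2 log2 units on every vertical axis. For Myocd both lines drop by more than 1 log2 unit, for Fhl1 both drop by less, and the lines of Srf, Mef2c, Fhl2 and Mkl1 run in opposite directions on the arrays.

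Myocd encodes myocardin, the coactivator of SRF in smooth and heart muscle. Its single probe covers chr11:64991930-64991989 on the minus strand of mm9, the build the scanner files use. Exon annotation of that build was not used here, so its place in the transcript is not given. The probe is shown because the largest change among the members rests on it alone. It is printed 5′ to 3′, with the TAA at bases 41 to 43 in capitals, a stop triplet that ends a run of 13 triplets without a stop in 1 reading frame; such a run can also arise outside a coding sequence.
Myocd probe: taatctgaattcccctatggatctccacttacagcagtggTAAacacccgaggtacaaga

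Myocd read 1280 normalised intensity units in the male control and 1764 in the female control, and 570 in the male Gata6cKO RNA and 626 in the female one. Both Gata6cKO RNAs thus lay below both controls, by a wide margin against the spread within a genotype. The log2 ratio was -1.17 in males and -1.49 in females, and the mean was -1.33 ± 0.12 (moderated SE, n = 2 arrays), with a 95% interval from -1.59 to -1.07. Myocd RNA was therefore 2.51-fold lower in Gata6cKO (limma adjusted p = 2.20e-05). Each array carries 4 spots of the probe, and the individual spots repeated the fall. Their log2 ratios ran from -1.21 to -1.12 on the male array and from -1.53 to -1.42 over the 3 spots used on the female array. Of the 19801 genes tested, 24 had a lower ratio than Myocd. The call held in all 10 alternative settings, with log2 ratios from -1.45 to -1.33 and adjusted p from 6.96e-13 to 0.0111.

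Mkl1 encodes MRTF-A, a coactivator that enters the nucleus when actin polymerises. Its brighter probe, at chr15:80842711-80842770 (minus strand), read 10210 and 9291 in the male and female control and 9461 and 10238 in the Gata6cKO RNAs. The genotypes overlapped, and the arrays differed in sign, with log2 ratios of -0.11 in males and 0.14 in females. The mean was 0.02 ± 0.12, with a 95% interval from -0.23 to 0.26. The dimmer Mkl1 probe, at chr15:80843080-80843139, gave a mean log2 ratio of -0.14, from -0.00 in males and -0.27 in females, and did not pass either. The sign of Mkl1 turned under median centring and when its probes were averaged, so no direction is given for it.

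Mkl2 encodes MRTF-B, the other actin-regulated partner of SRF. It read 14855 and 15266 in the controls and 15375 and 15343 in the Gata6cKO RNAs, from a probe at chr16:13417529-13417588 (plus strand). These 4 values were close together, and the log2 ratios were 0.05 and 0.01. The mean was 0.03 ± 0.11, with a 95% interval from -0.21 to 0.27, and its sign turned under median centring. A pair of dimmer Mkl2 probes gave mean ratios of 0.06 and -0.01. Among the 3 coactivators, then, the test passed for Myocd and not for the MRTFs, and the 95% intervals of Myocd and of both MRTFs did not meet. Differences between genes were not themselves tested.

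Srf encodes the DNA-binding partner of all 3 coactivators. Its own gene carries CArG boxes just before its start, so Srf is also among the genes SRF can act on. The 250 bases before the Srf start in RefSeq (GRCm38.p6, chr17:46556163-46556412, minus strand) are printed 5′ to 3′ with both CArG boxes in capitals, 82 to 73 and 62 to 53 bases before the start.
Srf: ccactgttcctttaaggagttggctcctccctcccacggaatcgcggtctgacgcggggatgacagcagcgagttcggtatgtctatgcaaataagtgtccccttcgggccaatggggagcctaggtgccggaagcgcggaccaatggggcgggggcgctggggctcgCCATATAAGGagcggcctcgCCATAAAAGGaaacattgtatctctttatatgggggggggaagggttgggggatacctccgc

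The brighter Srf probe, for which the scanner files list chr17:46683788-46683795 on mm9, read 5094 and 6624 in the male and female control and 5951 and 5831 in the Gata6cKO RNAs. The Gata6cKO values lay between the controls. The log2 ratio was 0.22 in males and -0.18 in females, and on both arrays the RNA labelled with Cy5 was the higher. The mean was 0.02 ± 0.12, with a 95% interval from -0.25 to 0.29. Its sign turned under median centring and when probes were averaged. The dimmer probe, at chr17:46685306-46685365, read 1773 and 2077 in control and 1705 and 2051 in Gata6cKO, a mean log2 ratio of -0.04. Neither probe passed the test, and the interval of the brighter probe excluded a 2-fold change in either direction.

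The MEF2 factors bind an A- and T-rich box related to the CArG box and act with myogenic factors and, when bound by class II histone deacetylases, as repressors. Mef2a read 2441 and 2369 in the controls and 2630 and 2482 in the Gata6cKO RNAs, from its brightest probe at chr7:74376573-74376632 (minus strand). Both Gata6cKO values were above both controls by a small step, with log2 ratios of 0.11 and 0.07. The mean of 0.09 ± 0.11 did not pass, and its 95% interval ran from -0.15 to 0.33. A dimmer Mef2a probe, at chr7:74379575-74379634, differed in sign between the arrays. It read 1136 and 1668 in control and 1696 and 1141 in Gata6cKO, so that the Cy5-labelled RNA was the higher on both arrays. Its log2 ratios were 0.58 in males and -0.55 in females and cancelled to 0.01 ± 0.18. The difference between its arrays divided by 2, 0.563, was the largest of the 18 probes. Another Mef2a probe gave a mean of -0.05.

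Mef2c is the family member most tied to muscle and heart formation. It was dim, at 339 and 443 in the male and female control and 393 and 355 in Gata6cKO. The genotypes overlapped. The log2 ratio was 0.22 in males and -0.32 in females, with the Cy5-labelled RNA again the higher on both arrays. The mean of -0.05 ± 0.13 had a 95% interval from -0.34 to 0.24. The listed position of its probe, chr13:83772788-83775025 on mm9, is longer than the probe's 60 bases.

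Mef2d, a broadly made MEF2 factor, read 9396 and 9446 in the controls and 9523 and 10905 in Gata6cKO, from a probe at chr3:87975777-87975836. Both Gata6cKO values were above both controls. The log2 ratio was 0.02 in males and 0.21 in females, with a mean of 0.11 ± 0.11 and a 95% interval from -0.13 to 0.36. Its other probes gave mean ratios of 0.01 and -0.02. None of the 7 probes for the 3 MEF2 genes passed the test.

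**Figure D2:**
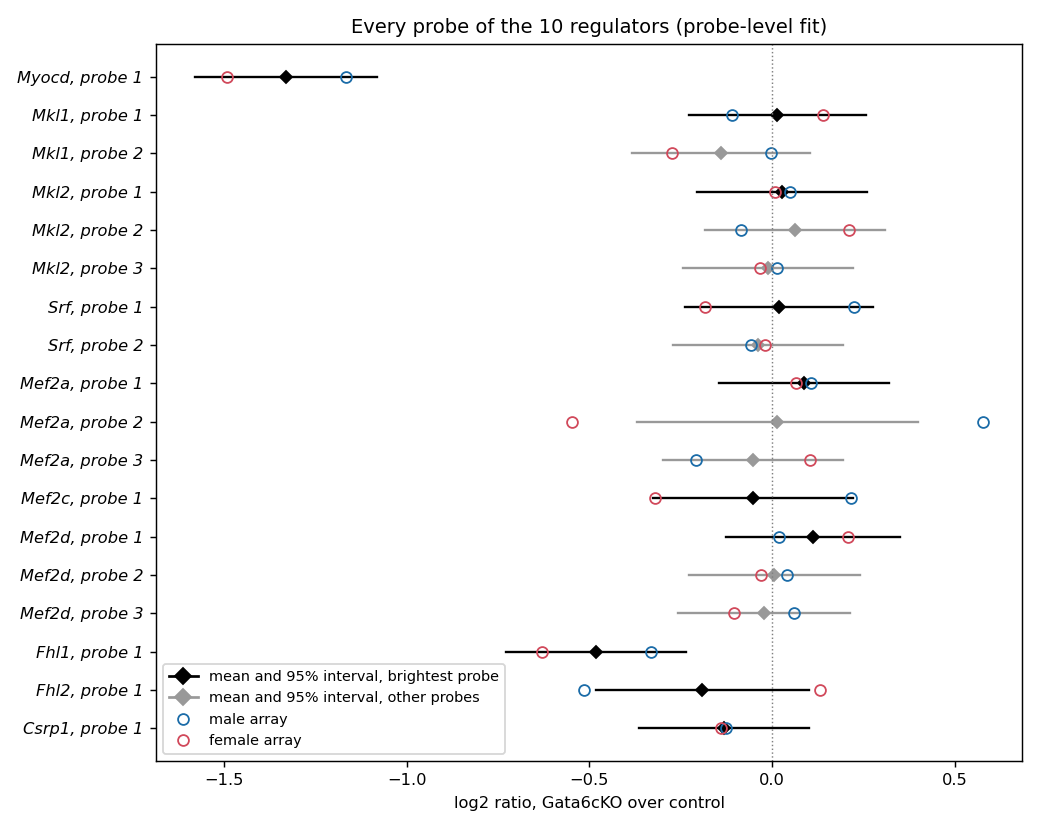
Log2 ratio of Gata6cKO over control for all 18 probes of the 10 members, with the mean over 2 arrays (diamond), its 95% interval (bar) and the value of each array (open circles), black for the brightest probe of a gene and grey for the others. The Myocd interval lies wholly below -1, that of Fhl1 lies between -0.73 and -0.23 in this fit over all probes, and all other intervals cross 0.

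The FHL proteins consist of LIM domains. FHL1 is abundant in striated muscle, and FHL2, itself made from an SRF-driven gene, can bind SRF in competition with the MRTFs. Windows before both genes held a CArG box in the RefSeq promoter table, 102 to 93 bases before 1 Fhl1 start and 96 to 87 or 31 to 22 bases before the Fhl2 starts. The box is in capitals in the windows printed here, Fhl1 from chrX:56779433-56779682 (plus strand) and Fhl2 from chr1:43196762-43197011 and chr1:43163962-43164211 (minus strand), all on GRCm38.p6 and 5′ to 3′.
Fhl1: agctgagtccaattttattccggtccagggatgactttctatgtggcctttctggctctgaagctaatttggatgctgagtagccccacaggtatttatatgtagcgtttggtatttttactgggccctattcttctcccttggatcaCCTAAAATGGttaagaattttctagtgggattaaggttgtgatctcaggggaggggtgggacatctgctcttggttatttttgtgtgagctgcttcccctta
Fhl2, upstream start: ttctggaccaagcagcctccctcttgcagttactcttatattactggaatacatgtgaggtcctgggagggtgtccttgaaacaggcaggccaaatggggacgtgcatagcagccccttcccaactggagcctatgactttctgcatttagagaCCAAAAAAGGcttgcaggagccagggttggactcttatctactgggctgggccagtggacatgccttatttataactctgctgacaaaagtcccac
Fhl2, downstream start: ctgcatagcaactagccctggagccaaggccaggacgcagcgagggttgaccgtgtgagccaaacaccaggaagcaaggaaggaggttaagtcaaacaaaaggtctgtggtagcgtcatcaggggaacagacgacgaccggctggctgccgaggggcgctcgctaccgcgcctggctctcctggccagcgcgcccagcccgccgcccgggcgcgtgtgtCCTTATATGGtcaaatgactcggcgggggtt

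Fhl1 was dim and read 311 and 345 in the male and female control and 247 and 223 in Gata6cKO, from a probe at chrX:54045353-54045412 (plus strand, mm9). Both Gata6cKO RNAs were below both controls. The log2 ratio was -0.33 in males and -0.63 in females, and single spots ran from -0.44 to -0.26 and from -0.77 to -0.54. The mean of -0.48 ± 0.12 (95% interval -0.74 to -0.23, n = 2 arrays) is a fall of 1.40-fold, which passed at a limma adjusted p of 0.0322. The call was lost in 4 of 10 alternative settings: adjusted p was 1 with median centring, 0.118 with no filter on low signal, 0.0614 with the channels fitted separately and no replicate block, and 0.0689 with the array as a random block. Over the 10 settings adjusted p ran from 5.41e-04 to 1, and all of them gave a fall, from -0.66 to -0.47. In all, 395 of 19801 genes had a lower ratio.

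Fhl2 gave opposite signs on the arrays. It read 5507 in the male control and 3856 in the male Gata6cKO RNA, but 3815 in the female control and 4183 in the female Gata6cKO RNA. Here the Cy3-labelled RNA was the higher on both arrays. The log2 ratios of -0.51 and 0.13 had a mean of -0.19 ± 0.14, with a 95% interval from -0.50 to 0.12 (probe at chr1:43179994-43180053, minus strand; limma adjusted p = 0.946).

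Csrp1, a LIM protein of smooth muscle that binds actin bundles and can bridge SRF and GATA factors, read 54685 and 51709 in control and 50113 and 46975 in Gata6cKO. Both Gata6cKO values were below both controls, with nearly equal log2 ratios of -0.13 and -0.14. The mean of -0.13 ± 0.11 did not pass, and the 95% interval ran from -0.37 to 0.11 (probe at chr1:137648747-137648806, plus strand; limma adjusted p = 1).

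The members also differed in how well the arrays repeated each other. The sign was the same on both arrays in 6 of 10 members, against 48.8% of all genes. Both Gata6cKO levels were below both control levels in 3 members (Myocd, Fhl1, Csrp1) and above them in 3 (Mkl2, Mef2a, Mef2d), and the genotypes overlapped in 4 (Mkl1, Srf, Mef2c, Fhl2). Over all genes, 33.5% had genotypes that did not overlap, 17.6% with Gata6cKO lower and 15.9% with it higher. In the 8 members that did not pass, the difference between the arrays divided by 2 had a median size of 0.11, against 0.079 over all genes. The 95% intervals of these 8 spanned -0.50 to 0.36 at the outermost, so a 2-fold change lay outside each of them.

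**Figure D3:**
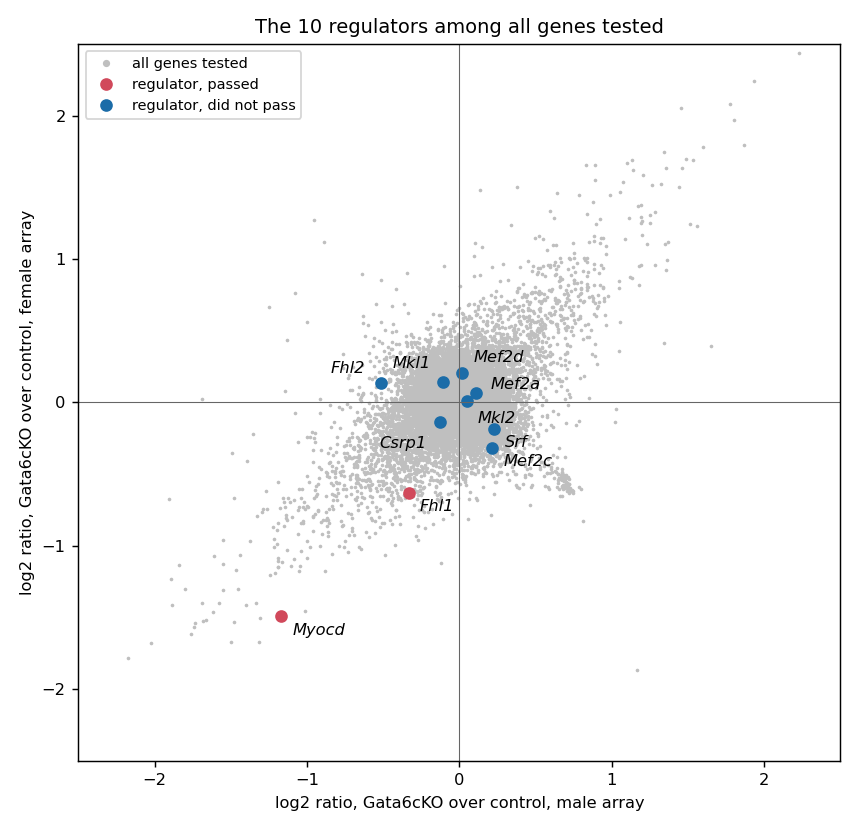
Log2 ratio of Gata6cKO over control on the male array (horizontal) against the female array (vertical), with all tested genes in grey, members that passed in red and members that did not in blue. Myocd sits far down the diagonal at -1.17 and -1.49, Fhl1 nearer to the centre, and Srf, Mef2c, Mkl1 and Fhl2 lie where the signs of the arrays differ.

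Genes with clone or placeholder names were left out before the 5 genes nearest to Myocd were taken, by distance between the log2 ratios of the 2 arrays. These were Upk2 (mean -1.40, distance 0.139), Esyt3 (-1.23, 0.162), Elmod1 (-1.37, 0.19), Kif5b (-1.49, 0.232) and Mgat4c (-1.41, 0.244). Upk2 encodes a uroplakin of the urothelium, the epithelium inside the ureter. Likeness over 2 arrays rests on a pair of values per gene.

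Myocardin acts on contractile genes, and 25 of 26 listed contractile and cytoskeletal targets of SRF and MYOCD were measured. Of these, 3 fell, 1 rose and 21 did not pass, with a list median of -0.08 against -0.00 over all genes. At an unadjusted p under 0.05, 6 were lower and 3 higher. Cnn1, which encodes the actin-binding protein calponin, had log2 levels of 12.81 and 12.06 in the male and female control and 11.33 and 10.53 in Gata6cKO. Its fall of the same size on both arrays gave a mean log2 ratio of -1.51 ± 0.11 (limma adjusted p = 4.90e-06). Actg2, the enteric smooth muscle actin, fell from log2 levels of 11.74 and 11.004 to 10.66 and 9.91. Its mean ratio was -1.09 (limma adjusted p = 5.74e-05), a call lost when the channels were fitted separately, at adjusted p of 0.106 and 0.132. Myh11, which encodes the myosin heavy chain of smooth muscle, was dim, with log2 levels of 7.99 and 7.89 in control and 7.30 and 6.96 in Gata6cKO. Its ratio of -0.81 (limma adjusted p = 8.10e-04) grew to -1.43 with the deposited series values and lost its call with median centring, at adjusted p = 0.124.

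Further genes of that list did not pass or rose. Acta2, smooth muscle actin, had log2 levels of 13.17 and 12.08 in control and 12.82 and 11.84 in Gata6cKO, and its ratio of -0.29 did not pass (limma adjusted p = 0.242). Its female control lay below its male Gata6cKO RNA, so the genotypes overlapped. Tagln, which encodes transgelin, gave -0.46 in males and 0.15 in females and did not pass. Synpo2, which encodes a Z-disc and stress fibre protein, rose by 0.87 ± 0.11 on the log2 scale (limma adjusted p = 4.51e-04).

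The growth-factor targets of SRF held rises and no fall that passed. Of 10 measured genes of 11 listed, Srf among them, 4 rose, 0 fell and 6 did not pass, and the list median was 0.36. At an unadjusted p under 0.05, 6 were higher and 1 was lower. Fos, an immediate-early transcription factor, had log2 levels of 12.83 and 12.75 in control and 14.18 and 13.85 in Gata6cKO, a ratio of 1.23 ± 0.12 (limma adjusted p = 3.20e-05). Fosb and Egr1, further immediate-early factors, each rose by 1.00 on the log2 scale. Ier2 rose by 0.49 (limma adjusted p = 0.0350), a call lost in 4 of 10 settings.

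In the list of SRF partner factors, which holds ELK, TEAD and other factors, 0 of 14 measured genes passed with limma, with a median of 0.05. At an unadjusted p under 0.05, 2 of them were higher and 0 lower. Elk4, a ternary complex factor, had a ratio of 0.25 (limma adjusted p = 0.408). Tead1, a factor that binds muscle elements beside CArG boxes, had 0.20 in males and -0.38 in females, with a mean of -0.09. The LIM and MEF2 relatives of the members gave 0 calls among 7 measured genes, and 0 at an unadjusted p under 0.05 in limma. Their median was -0.03, and Mef2b and Csrp2 had ratios of -0.03 and -0.11.

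Proteins that hold back SRF, MYOCD or MEF2 showed 3 falls, 0 rises and 11 genes that did not pass among 14 measured, with a median of -0.02. Twist1, a bHLH factor of mesenchyme, had log2 levels of 11.85 and 11.74 in control and 10.81 and 10.698 in Gata6cKO. Its ratio of -1.04 on both arrays passed (limma adjusted p = 8.72e-05). Klf5, a zinc finger factor of epithelia and of immature smooth muscle, fell from 12.57 and 12.54 to 11.70 and 11.68 on the log2 scale, a ratio of -0.86 (limma adjusted p = 3.90e-04). Hopx, a homeodomain protein that binds SRF but not DNA, fell by 0.54 on the log2 scale (limma adjusted p = 0.0118), a call lost in 4 of 10 settings. Klf4, which opposes myocardin in cultured smooth muscle, had a ratio of 0.21 and did not pass.

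Factors known to act upstream of smooth muscle formation in the ureter were read beside Myocd. Tshz3, a zinc finger factor known to be needed for Myocd expression in the ureter, had a ratio of 0.36 (limma adjusted p = 0.134). Sox9 and Tbx18 had ratios of -0.07 and -0.20, and Foxf1 had -0.42 (limma adjusted p = 0.0786), so none of these 4 passed.

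**Figure D4:**
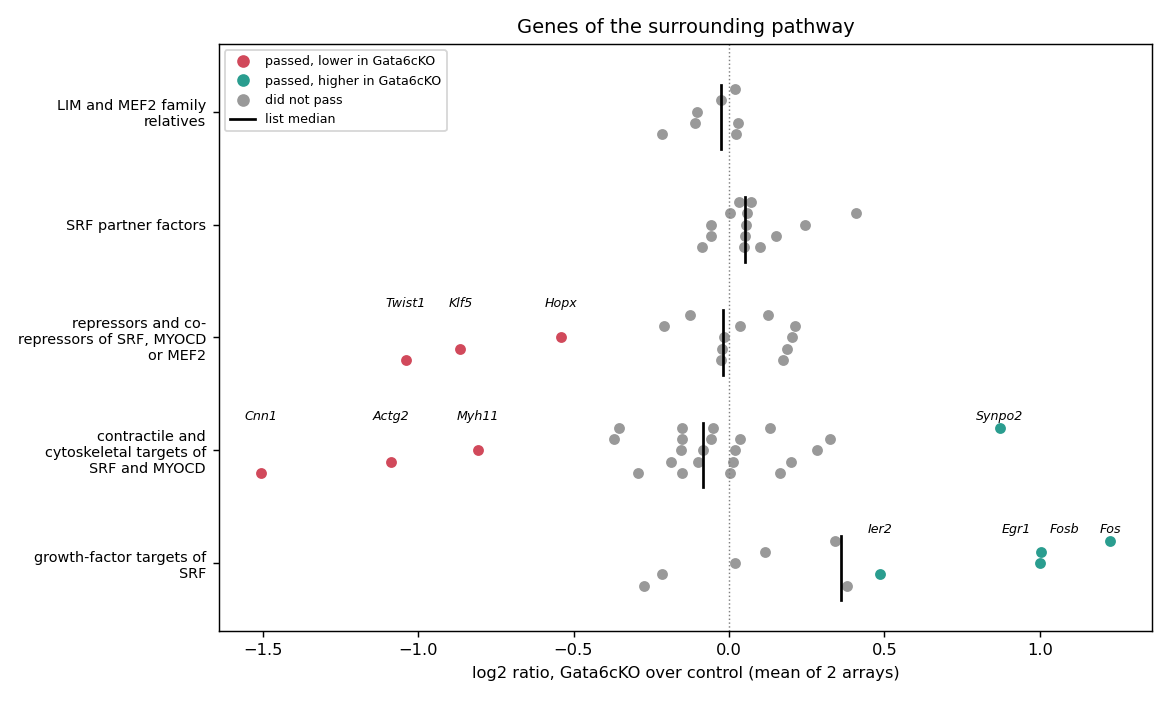
Log2 ratio of Gata6cKO over control for the measured genes of 5 lists around SRF and myocardin, 1 point per gene, coloured by whether it passed lower, passed higher or did not pass, with a black line at each list's median. The contractile list holds 3 falls and 1 rise, the growth-factor list 4 rises, and the partner and relative lists none of either.

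Markers of other cell types moved between the same RNAs, and their part in the values of the regulators was not tested. Of 12 measured skeletal muscle markers of 15 listed, 7 rose and 0 fell. Their summed normalised intensity was 6241 to 8558 in control and 8351 to 13375 in Gata6cKO, while the skeletal muscle factors Myf5 and Myf6 and the creatine kinase gene Ckm were below the filter in this tissue. MEF2 factors and FHL1 are also made in skeletal muscle. Of 12 neuron and glia markers, 9 rose and 0 fell, with sums of 106820 to 111750 in control and 125290 to 131970 in Gata6cKO. Of 8 urothelium markers, 5 fell and 0 rose, with sums of 35645 to 42929 in control and 21454 to 23048 in Gata6cKO. Heart muscle markers, which matter for Myocd because heart also makes it, gave 1 rise (Myh6, 0.47) and 0 falls among 6 measured genes of 10, and Nkx2-5, Myl7, Nppa and Tbx5 were below the filter. Heart muscle sums were 19835 to 22076 in control and 14729 to 19932 in Gata6cKO, but Actc1, at a log2 ratio of -0.35, made up most of each sum. The other 5 measured heart markers had ratios from 0.10 to 0.47, and the median of all 6 was 0.16. Endothelial markers gave 1 fall among 8 (Tek, -0.55), and pericyte and vascular smooth muscle markers gave 1 rise among 6 (Kcnj8, 0.51). Macrophage markers gave 0 calls among 6 and ureteric mesenchyme markers 0 among 5 in limma. At an unadjusted p under 0.05 these were 1 higher and 0 lower for macrophages, and 1 higher and 2 lower for the mesenchyme.

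In the RefSeq promoter table, 17 windows matched 9 of the 10 members, with Myocd not matched. The CArG box stood in 4 of the 17 member windows (23.5%), in Srf, Fhl1 and Fhl2, and in 482 of all 32851 windows of the same length (1.47%). The MEF2 box stood in 11.8% of member windows (Fhl2 and Mkl2) and in 2.92% of all. GATAA, a core to which GATA factors bind, was searched on both strands and stood in 17.6% of member windows (Fhl2, Mef2c and Mkl2) and in 22.6% of all. CATTCC stood in 11.8% of member windows and in 12.6% of all. CANNTG, where N is any base, stood in 64.7% of member windows and in 66.2% of all. Of the members with a CArG box in such a window, Fhl1 fell and Srf and Fhl2 did not pass. A match describes the letters of a window and is not evidence of binding.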

How the data were processed

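Agilent arrays of 2 colours measured total RNA. The deposited scanner files hold raw mean intensity and local background intensity per spot and dye. They also hold processed intensity and a log10 ratio made with Agilent Feature Extraction 10.7.3.1, per the submitters' processing notes and the file headers. The deposited series values are a score, a signed linear fold whose log2 values correlated with the processed log ratios across probes (Pearson r 0.985 and 0.98), and how spots were summarised for it is not given in the sources used here. Both arrays lay on 1 slide.

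Raw intensities were corrected with normexp (offset 50) and loess within each array in R 4.3.3 with limma 3.58.1, with control and outlier spots at weight 0, and spots were averaged. Probes with at least 3 of 4 spots well above background in the Gata6cKO or control channel on both arrays were kept (26200), and the brightest stood for its gene (19801 genes). The log2 ratio was turned so that positive means higher in Gata6cKO and fitted with lmFit and eBayes (residual df 1, prior df 11.9). P-values are two-sided, with Benjamini-Hochberg adjustment over all genes. Levels are normalised intensities of a probe and are not set against those of another probe. The sign turning and the moderated test were run on simulated ratios with no dye effect and with noise drawn from the variance prior fitted here. Normalisation, filtering, probe choice and the promoter search were not tested in that way.

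Named genes were the 10 members with every probe and the called genes of each list (at most 4 by smallest p). The rule also took 15 further genes fixed by name and the 5 nearest to Myocd, the latter without clone and placeholder names. Foxf1, Gata6 and the marker genes Myh6, Actc1, Tek and Kcnj8, and genes named for a promoter box, are outside that rule and were named after their values were seen. Members and lists were chosen with earlier results of these data known. Some listed genes are not reported here. Gene symbols follow a RefSeq table (GRCm38.p6). CArG and MEF2 boxes and GATAA were searched in the 250 bases before each RefSeq start. Alternatives covered background, normalisation, filter, probe choice, variance prior, the deposited series values, separate channels and each array alone.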

Additional observations from a re-analysis of the deposited data

Results flagged for a closer look

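In 4 members the 2 arrays gave opposite signs. The male ratio minus the female ratio, on the log2 scale, was -0.65 for Fhl2, 0.53 for Mef2c, 0.41 for Srf and -0.25 for Mkl1. The male pair was lower in Gata6cKO and the female pair higher for Fhl2 and Mkl1, and the reverse held for Mef2c and Srf. Each sex is 1 array. The difference was not tested, and sex, dye and replicate coincide between the arrays. For Srf and Mef2c the Cy5-labelled RNA was the higher on both arrays, and for Fhl2 and Mkl1 the Cy3-labelled RNA was.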

How the results depend on the processing

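Across 10 alternative settings Myocd stayed called lower, and Fhl2, Csrp1, Mef2a, Mef2c and Mef2d kept their sign without passing. The filter, variance-trend and separate-channel settings left each member's ratio unchanged, so a kept sign there was fixed in advance. On single arrays Fhl2 and Mef2c did change sign. Signs turned for Srf (-0.026 with median centring, -0.0085 with averaged probes), Mkl2 (-0.023 with median centring) and Mkl1 (-0.033 and -0.062 in those settings). The count of members called lower was 1 in place of 2 with median centring, no filter, separate channels with no replicate block, and separate channels with the array as a random block. All-gene counts, 465 lower and 436 higher in the reported fit, were 100 and 90 with median centring, 229 and 248 with no filter, and 795 and 672 with the deposited series values. They were 296 lower with no replicate block, and 267 and 275 with the random block. Genes of the 7 pathway lists called lower numbered 4 with median centring and with the random block, in place of 7. The cause was not tested. Pairing lies in each array's own ratio. With either array left out, 1 array remains and gives a value with no test: Myocd ran from -1.49 to -1.17 and Fhl1 from -0.63 to -0.33. Signal over background limits Fhl1, Mef2c and the dim Mkl2, Mef2a and Mef2d probes most.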

Other observations

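CArG boxes before the start were set against the calls of all tested genes, as a description with no test. Of 196 tested genes with a box in a RefSeq window, 9 were called lower (4.59%) and 7 higher (3.57%), with a median log2 ratio of -0.016. Of 12522 genes with windows but no box, 297 (2.37%) were lower and 295 (2.36%) higher, and 7083 tested genes had no window in the table. In the contractile list 22 of 25 measured genes had a window. Of these 22, 4 held a box (Myl9, Vcl, Filip1l and Ldb3), and none of these 4 is among the contractile genes that passed. In the growth-factor list 7 of 10 measured genes had a window, Egr2 and Srf held a box, and neither passed. Hopx, which fell, held a box among the repressors. Boxes outside the windows were not searched, and whether each gene that passed had a window is not given here. These counts therefore do not show whether the genes that passed lack a CArG box.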
